A study of Mus musculus with 10 samples.

Results

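The genes described here encode collagen chains, laminin chains, the proteins that link them into basement membranes (nidogens, perlecan and agrin) and fibronectin. Members were the protein-coding rows of the count table whose symbol names a collagen alpha chain (Col, number, a, number) or a laminin chain (Lama, Lamb or Lamc with a number), plus Nid1, Nid2, Hspg2, Agrn and Fn1. This gave 60 of 56748 genes, of which 44 encode collagens, 11 laminins, 4 linkers and 1 fibronectin. The libraries came from primary hepatocytes of wild-type mice kept overnight in medium conditioned by adipocytes, with 5 libraries per group. In the group Mttp_flox_CM the adipocytes came from male Mttp f/f mice, in which Mttp is floxed. In the group Mttp_KO_CM they came from male A-Mttp-/- mice, which lack Mttp in adipose tissue. Mttp encodes a protein that loads lipid onto apolipoprotein B. In both groups the fat donors (3 mice in the labels) had eaten an obesogenic diet for 6 months, and their inguinal stromal vascular cells were differentiated in culture with a cocktail that included rosiglitazone, then starved. The promoter that drove the deletion and the ages of the mice are not stated in these sources, and the hepatocytes themselves carried no Mttp deletion.

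Collagens are trimers of alpha chains wound around each other. Fibrillar collagens form the cables of scar and stroma, whereas collagen IV forms the flat network of basement membranes. Laminins are cross-shaped trimers of an alpha, a beta and a gamma chain, which polymerize at the cell surface and are tied to collagen IV by nidogen, perlecan and agrin. In healthy liver the sinusoids lack a continuous basement membrane, stellate cells and fibroblasts make most fibrillar collagen, endothelial and stellate cells make much of the collagen IV, and hepatocytes make plasma fibronectin.

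Depth was even, at 14199798 to 15950530 counts per library in Mttp_flox_CM and 14283517 to 17178131 in Mttp_KO_CM. Hepatocyte genes were abundant, and albumin (Alb) stood at 29138 and 25098 mean CPM in Mttp_flox_CM and Mttp_KO_CM. CPM are counts relative to library size, scaled by TMM, the trimmed mean of M values. Markers of other liver cells were also present in every library. The summed level of 18 endothelial markers was 2834 to 3018 CPM in Mttp_flox_CM and 1598 to 1695 CPM in Mttp_KO_CM, and all 18 were lower in Mttp_KO_CM by edgeR's test. Of 15 stellate cell and fibroblast markers 10 could be tested and 8 were lower, and the summed level was 71.6 to 80.4 CPM against 47.8 to 52.0 CPM. For 12 macrophage markers, of which 11 were lower and Cd68 was higher, the sums were 948 to 1049 and 679 to 771 CPM. The 10 hepatocyte markers summed to 51375 to 53808 CPM and 43634 to 45145 CPM, with 7 lower and 2 higher. Of 8 adipocyte markers 3 could be tested and all 3 were higher, and the summed level of the 8 was 102 to 116 CPM in Mttp_flox_CM and 126 to 138 CPM in Mttp_KO_CM. These 3 were Fabp4 (98.3 and 108 mean CPM), the lipase gene Lipe (9.49 and 20.0) and Cidea (1.58 and 2.56), while Lep and Cfd were at 0 in every library and Adipoq had 4 counts in all. None of the endothelial, stellate, macrophage or hepatocyte markers was at 0 in every library. As background for the marker counts, 18.1% of all genes tested were lower and 18.2% higher at an adjusted p under 0.05. In bulk RNA, fewer cells of a type and less RNA per cell cannot be told apart, and the part of these cell types in the results was not tested.

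Most matrix chains that could be measured were lower in Mttp_KO_CM, and a single laminin chain went strongly the other way. Of the 60 members, 7 had no count in any library, 19 had between 2 and 79 counts in all and fell under the filter on low counts, and 34 were tested. By edgeR's quasi-likelihood test at an adjusted p under 0.05 (Benjamini-Hochberg over 14183 genes), 22 of the 34 were lower, 2 were higher and 10 did not pass. Among all genes tested, 18.1% were lower and 18.2% higher. The median log2 change was -0.35 over the 34 members and 0.00 over all genes tested. Every Mttp_KO_CM library lay under every Mttp_flox_CM library for 19 members, and above for 1, where 12.7% of all genes tested showed the first pattern and 13.0% the second. With library size alone in place of TMM, 23 members were lower and 2 higher, and 3217 of all genes were lower and 1982 higher, against 2571 and 2585 with TMM. Only Col20a1 and Col11a2 reached the filter's level of 0.661 CPM in 2 or fewer libraries of a group, so their presence among the 34 rested on the group where they were higher.

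**Figure D1:**
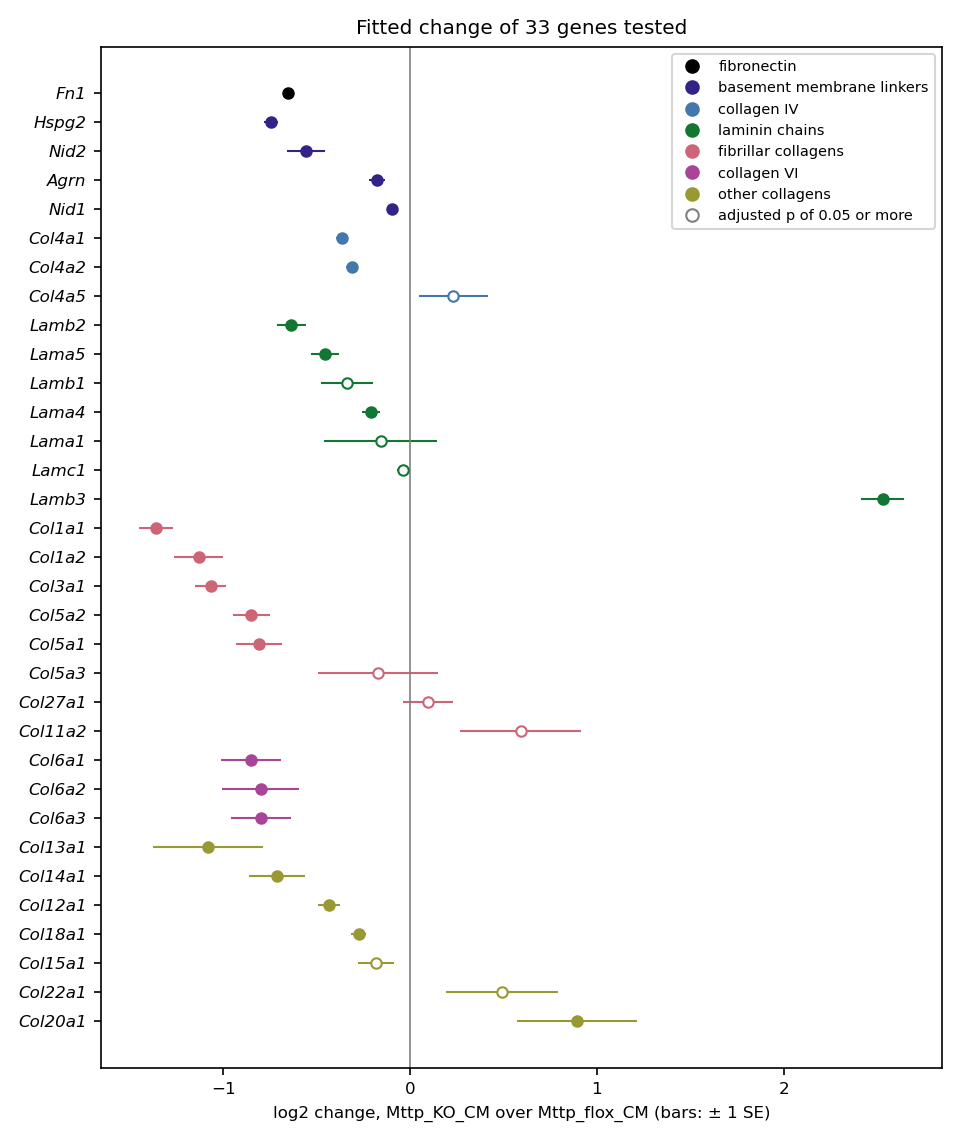
Fitted log2 change of Mttp_KO_CM over Mttp_flox_CM (x axis) for 33 of the 34 members tested, coloured by class, with bars of 1 SE; open circles did not pass an adjusted p of 0.05. The 22 filled circles left of 0 run from Nid1 at -0.10 to Col1a1 at -1.36, and Lamb3 stands alone at 2.53.

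Fibronectin, the glycoprotein that cells assemble into fibrils and that hepatocytes also secrete into plasma, was the most abundant member and fell. Library values are given throughout in the order 1, 2, 3, 4 and the unnumbered library. On chromosome 1 (71624679 to 71692359, minus strand, GRCm39), Fn1 (ENSMUSG00000026193) was at 2224, 2203, 2401, 2379 and 2312 CPM in Mttp_flox_CM. In Mttp_KO_CM it was at 1473, 1515, 1369, 1478 and 1501 CPM, so the groups were far apart. The log2 change was -0.65, with SE 0.0294 and an edgeR adjusted p = 4.2e-15. Fn1 alone made up 46.5 ± 0.902% (SD, n = 5) of the CPM of all 60 members in Mttp_flox_CM and 40.1 ± 0.774% in Mttp_KO_CM. The summed CPM of the members was 4952 ± 115 and 3659 ± 92.2.

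**Figure D2:**
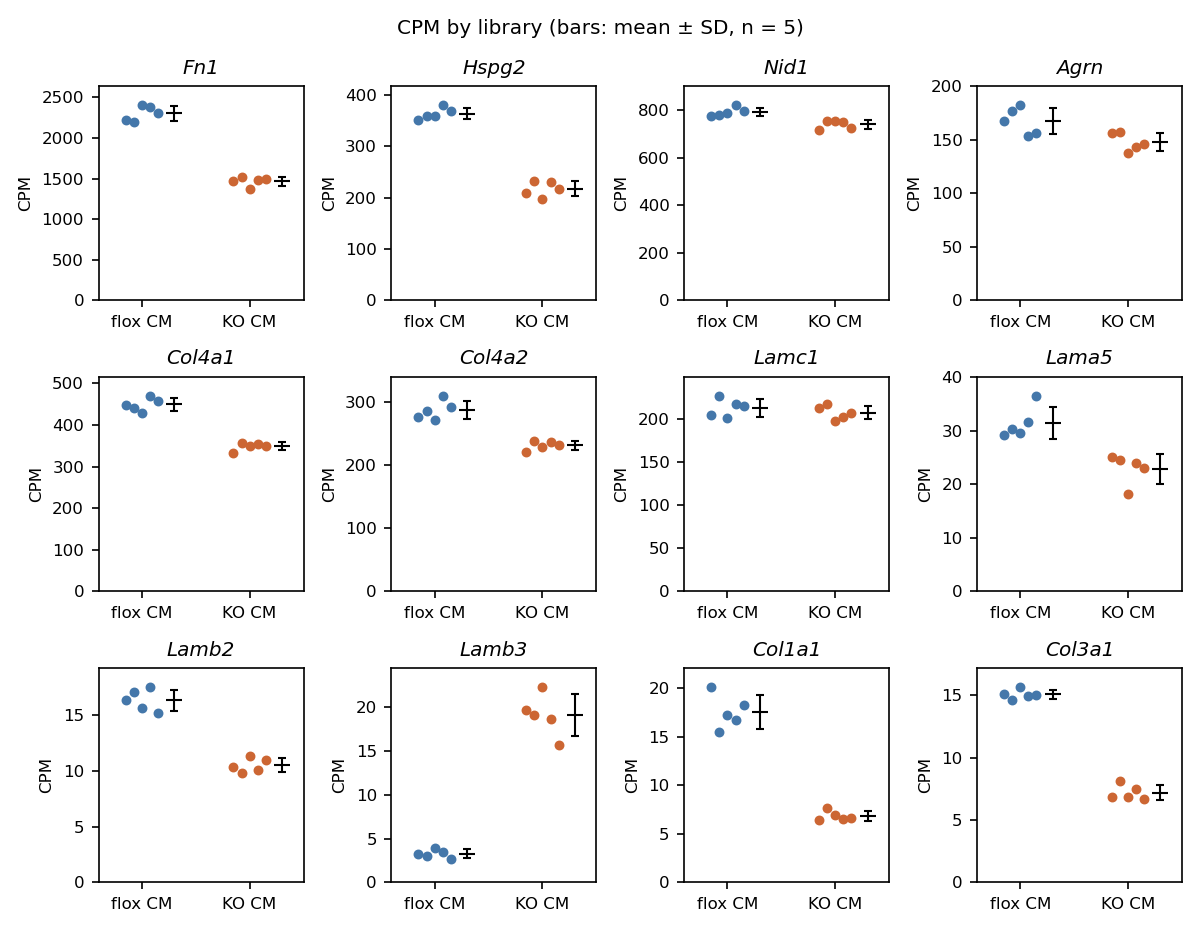
CPM in each of the 10 libraries (points; y axis from 0) with mean ± SD beside them (n = 5 per group) for 12 members. Fn1, Hspg2, Col1a1 and Col3a1 separate widely, Nid1 by little, Lamc1 overlaps, and Lamb3 is higher in every Mttp_KO_CM library.

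All 4 linkers of the basement membrane fell, but by very different amounts. Perlecan, the large heparan sulfate proteoglycan encoded by Hspg2 (ENSMUSG00000028763, chromosome 4 from 137196080 to 137297941, plus strand, GRCm39), was at 351, 358, 359, 379 and 369 CPM in Mttp_flox_CM. It was at 209, 232, 197, 230.3 and 217 CPM in Mttp_KO_CM, with no overlap. Its log2 change of -0.74 (SE 0.0372, edgeR adjusted p = 2.9e-14) was the largest among members above 100 CPM. Nidogen 1, which bridges laminin and collagen IV, moved least. Nid1 was at 777, 779, 786, 819 and 795 CPM in Mttp_flox_CM and at 717, 754, 755, 749 and 725 CPM in Mttp_KO_CM. These values did not overlap, yet the change was -0.10 (SE 0.0249, edgeR adjusted p = 0.0034). Agrin, the proteoglycan that binds laminin and dystroglycan, was at 168, 177, 182, 154 and 157 CPM against 156, 158, 138, 143 and 146 CPM. Its groups overlapped, and the change was -0.18 (SE 0.0448). Nidogen 2 (Nid2) was at 10.6, 11.4, 13.5, 12.8 and 12.4 CPM against 8.28, 8.91, 6.45, 9.30 and 8.49 CPM, a log2 change of -0.56 (SE 0.102, edgeR adjusted p = 1.1e-04). The strand setting of the counting is not given, and Nid2 shares 437 exon bases with the opposite-strand gene Rtraf in the GENCODE M21 annotation (GRCm38). Rtraf had 7.64 times the counts of Nid2 and a log2 change of 0.00 (SE 0.0464).

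Perlecan and nidogen 1 thus changed unequally within libraries. The ratio of Hspg2 to Nid1 in FPKM, the authors' value that divides a count by gene length and library size, was 0.213 to 0.219 over the Mttp_flox_CM libraries and 0.123 to 0.145 over the Mttp_KO_CM libraries. This difference had an exact two-sided permutation p = 0.0079, the smallest that 5 against 5 allows (adjusted p = 0.028 over 7 ratios between members). The 7 ratios were chosen after the values were seen. The log2 difference in the ratio was -0.65, also without both unnumbered libraries.

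The ubiquitous chains of collagen IV fell together and moderately. Col4a1 and Col4a2 encode the alpha 1 and alpha 2 chains that form the common network, and they lie head to head on chromosome 8. In GRCm39 Col4a1 (ENSMUSG00000031502) spans 11248423 to 11362826, minus strand, and Col4a2 (ENSMUSG00000031503) 11362805 to 11499287, plus strand. Their 5′ ends overlap by 22 bases. Because these 2 chains moved together, the promoter windows are shown. Each runs 300 bases, from 250 before to 50 after the gene's start, 5′ to 3′ on the gene's own strand, from RefSeq (GRCm38.p6). The 78 bases in capitals are the same DNA, read from opposite strands.
Col4a1, chr8:11312777-11313076, minus strand: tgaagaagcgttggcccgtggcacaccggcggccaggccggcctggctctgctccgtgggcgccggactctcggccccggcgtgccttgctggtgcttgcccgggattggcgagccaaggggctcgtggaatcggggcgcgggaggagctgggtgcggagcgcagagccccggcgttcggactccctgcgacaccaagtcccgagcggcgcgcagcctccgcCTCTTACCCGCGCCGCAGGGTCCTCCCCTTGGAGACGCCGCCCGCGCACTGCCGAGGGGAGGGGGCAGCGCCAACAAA
Col4a2, chr8:11312555-11312854, plus strand: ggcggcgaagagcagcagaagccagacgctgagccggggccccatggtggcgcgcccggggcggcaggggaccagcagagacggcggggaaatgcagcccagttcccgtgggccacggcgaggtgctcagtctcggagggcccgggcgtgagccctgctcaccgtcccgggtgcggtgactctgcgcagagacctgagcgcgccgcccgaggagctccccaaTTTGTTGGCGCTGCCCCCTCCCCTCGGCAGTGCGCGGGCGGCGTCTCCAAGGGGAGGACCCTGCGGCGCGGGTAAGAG
Both windows are rich in G and C (74.0% and 73.7%). The hexamer GGGCGG or its complement CCGCCC, known as the GC box, occurs 1 time in the Col4a1 window and 3 times in the Col4a2 window. The CCAAT box (CCAAT or ATTGG) occurs 1 time in each. A GC box is in 35.7% of all 32851 windows and a CCAAT box in 37.4%, so these matches are a description. In the same libraries the summed endothelial and stellate markers were lower, as given above.

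Col4a1 was at 449, 440.3, 429.7, 468 and 458 CPM in Mttp_flox_CM and at 333, 356, 349.8, 354 and 349.8 CPM in Mttp_KO_CM. Col4a2 was at 278, 287, 272, 309 and 293 CPM in Mttp_flox_CM and at 222, 239, 229, 237 and 232 CPM in Mttp_KO_CM. For either gene the lowest Mttp_flox_CM library stood above the highest Mttp_KO_CM library. The log2 changes were -0.37 (SE 0.0282, edgeR adjusted p = 1.4e-10) and -0.31 (SE 0.033, edgeR adjusted p = 3.9e-08). In FPKM, Col4a1 exceeded Col4a2 by a ratio of 1.39 ± 0.0357 (SD, n = 5) in Mttp_flox_CM and 1.33 ± 0.0125 in Mttp_KO_CM. That shift in the ratio was small, at -0.06 on the log2 scale (exact permutation adjusted p = 0.037 over the 7 ratios). It did not pass without Mttp_KO_CM replicate 1, 2, 4 or the unnumbered Mttp_KO_CM library, where the log2 differences lay between -0.0557 and -0.0523. The tissue-restricted chain Col4a5 had a log2 change of 0.23 (SE 0.183, edgeR adjusted p = 0.36) at 2.38 and 2.81 mean CPM. Without the unnumbered Mttp_flox_CM library, at 1.57 CPM where the others of its group were at 2.30 to 3.01, its log2 change was 0.113, and 0.0376 without both unnumbered libraries. Col4a3, Col4a4 and Col4a6 were below the filter.

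Laminin chains split by gene. The gamma 1 chain, which most laminins share, was the most abundant laminin member and did not pass the test. Lamc1 was at 204, 226, 201, 217 and 216 CPM in Mttp_flox_CM and at 213, 217, 198, 202 and 207 CPM in Mttp_KO_CM. The groups overlapped, with a log2 change of -0.04 (SE 0.0342, edgeR adjusted p = 0.43). Lama4, the alpha chain of vascular and mesenchymal laminins, was at 49.5, 46.7, 49.4, 51.6 and 52.9 CPM against 46.1, 40.8, 40.0, 42.7 and 46.9 CPM. It fell by 0.21 (SE 0.0496), with 1 Mttp_KO_CM library reaching into the range of Mttp_flox_CM. Lama5, the alpha chain of many mature epithelial and endothelial basement membranes, was at 29.2, 30.3, 29.6, 31.6 and 36.4 CPM against 25.0, 24.6, 18.1, 23.9 and 23.0 CPM. It fell by 0.46 (SE 0.0751, edgeR adjusted p = 2.8e-05) without overlap.

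The beta chains moved in opposite directions. Lamb2, the beta chain of vascular, muscle and glomerular laminins, was at 16.4, 17.1, 15.6, 17.5 and 15.2 CPM in Mttp_flox_CM. In Mttp_KO_CM its values were 10.4, 9.82, 11.4, 10.1 and 11.0 CPM, and it fell by 0.64 (SE 0.077, edgeR adjusted p = 3.6e-07). Lamb1, the most widespread beta chain, was at 8.80 ± 1.87 and 6.96 ± 1.18 CPM (SD, n = 5), a log2 change of -0.34 (SE 0.14, edgeR adjusted p = 0.064). It passed the test without Mttp_flox_CM replicate 1 (edgeR adjusted p = 0.0048), without Mttp_KO_CM replicate 4 (0.032), with library size alone (0.038) and with no filter (0.017). Lamb3, the beta chain of laminin 332 in epithelial anchoring, was at 3.28, 3.01, 3.97, 3.48 and 2.73 CPM in Mttp_flox_CM and at 19.7, 19.2, 22.2, 18.7 and 15.6 CPM in Mttp_KO_CM. It rose 5.78-fold (log2 2.53, SE 0.113, edgeR adjusted p = 3.6e-15), and its lowest Mttp_KO_CM library stood far above its highest Mttp_flox_CM library. Lama3, its alpha partner, had 5 to 12 counts in each library and was not tested.

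Lamb3 (ENSMUSG00000026639) spans chromosome 1 from 192890007 to 193026186 on the plus strand (GRCm39) in the files, and this span holds G0s2 and Hsd11b1 on the opposite strand. G0s2, an inhibitor of adipose triglyceride lipase, had 5.48 times the counts of Lamb3 and rose by 3.04 (SE 0.0665). Hsd11b1, which regenerates active glucocorticoid, had 5.24 times the counts and a log2 change of -0.11. In GENCODE M21 (GRCm38) the exons of Lamb3 share 0 bases with those of G0s2 and 0 with those of Hsd11b1. The deposited gene length of Lamb3, 6612 bases, equals its exon total in that annotation. Whether reads from unannotated sequence near G0s2 entered the Lamb3 count was not tested.

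**Figure D3:**
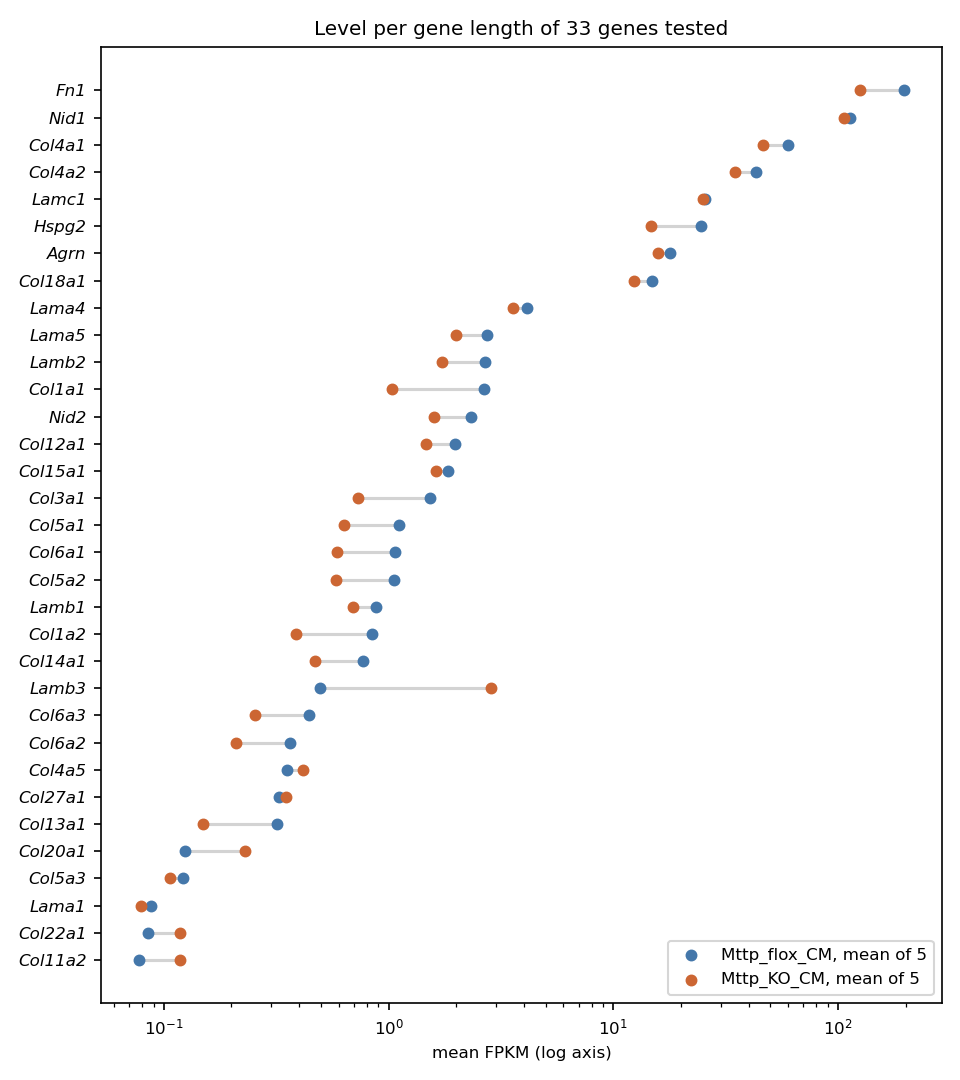
Mean FPKM (log x axis) of 33 of the 34 members tested in Mttp_flox_CM and Mttp_KO_CM (5 libraries each), ordered by the level in Mttp_flox_CM. Fn1, Nid1 and the collagen IV chains lead, Lamc1 exceeds every other laminin chain drawn, and Lamb3 shows the longest shift.

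Per gene length, Lamc1 was in large excess of the alpha and beta chains. It stood at 25.6 FPKM on average in Mttp_flox_CM and 24.9 in Mttp_KO_CM. The 3 beta chains summed to 4.05 ± 0.263 FPKM (SD, n = 5) in Mttp_flox_CM and 5.29 ± 0.416 in Mttp_KO_CM, and the 5 alpha chains to 7.02 ± 0.433 and 5.71 ± 0.415 FPKM. Among the beta chains only Lamb3 had a higher mean in Mttp_KO_CM, at 0.495 and 2.87 FPKM. Lamb2 was at 2.67 and 1.72 FPKM, and Lamb1 at 0.882 and 0.698. Within libraries, the FPKM ratio of Lamc1 to Lamb2 was 9.58 ± 0.536 in Mttp_flox_CM and 14.6 ± 1.29 in Mttp_KO_CM (exact permutation adjusted p = 0.028). Its log2 difference was 0.60, and 0.65 without both unnumbered libraries. The Lamc1 pairs were also chosen after the values were seen, so their p-values add no separate support to the changes of the single genes. The ratio of Lamc1 to Lama4 was 6.22 ± 0.476 and 7.02 ± 0.498 (exact permutation adjusted p = 0.056), and passed without Mttp_flox_CM replicate 2 (exact permutation adjusted p = 0.028). That of Lamc1 to Lamb1 was 30.2 ± 7.30 and 36.8 ± 7.77 (exact permutation adjusted p = 0.22), and passed without Mttp_flox_CM replicate 1 (exact permutation adjusted p = 0.042). Levels of different genes rest on the deposited gene lengths, which equal the GENCODE M21 exon totals for 55 of the 60 members. Such a total joins the exons of all transcripts of a gene and can exceed the length of any 1 transcript. It is 12426 bases for Col1a2 and 6563 for Col1a1, and 8326 for Col6a2 and 4380 for Col6a1. The size of a ratio between genes depends on these lengths, while its change between groups does not.

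**Figure D4:**
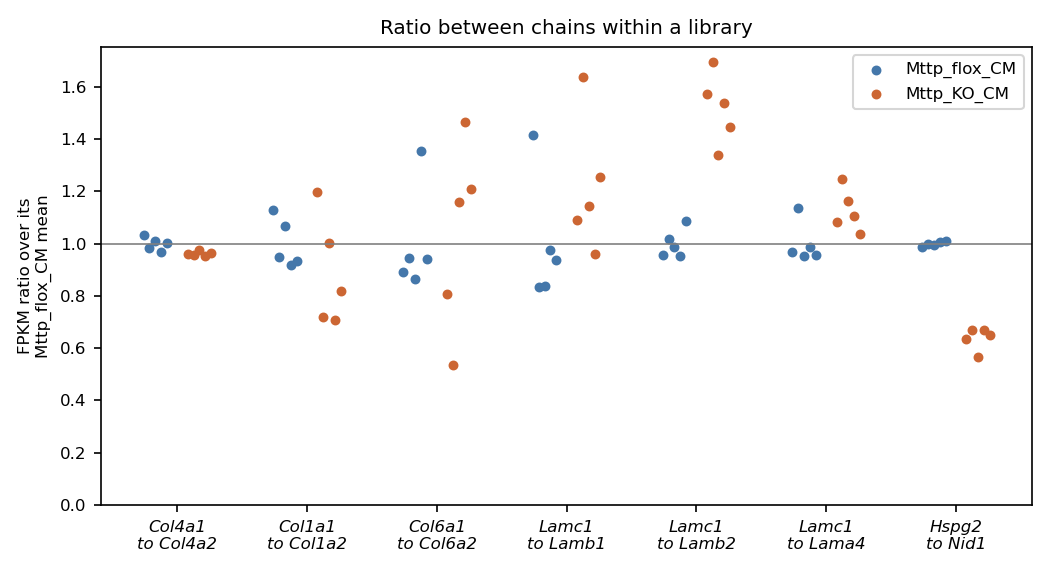
FPKM ratio between 2 members within each library, divided by the mean ratio of Mttp_flox_CM (y axis from 0), with 5 libraries per group. Hspg2 to Nid1 lies lower and Lamc1 to Lamb2 higher in every Mttp_KO_CM library, while the other 5 ratios overlap between groups.

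Fibrillar collagens were scarce and had the lowest median log2 change of the classes with several genes, -0.83. Their 11 genes summed to 68.7 ± 3.31 CPM in Mttp_flox_CM against 36.1 ± 3.18 CPM in Mttp_KO_CM (SD, n = 5). Of the 8 tested, Col1a1, Col1a2, Col3a1, Col5a1 and Col5a2 fell, each without overlap, and Col27a1, Col5a3 and Col11a2 did not pass. By edgeR's test 0 were higher, also at an unadjusted p under 0.05, and 0 by DESeq2. Without the unnumbered Mttp_flox_CM library 1 was higher, Col11a2, whose log2 change over all libraries was 0.59 (edgeR adjusted p = 0.17). In the same libraries the summed stellate cell and fibroblast markers were lower, as given above. Single markers of that list were at 4.53 and 1.12 mean CPM for Lrat, which esterifies retinol in stellate cells, at 4.70 and 1.23 for Acta2, the smooth muscle actin gene, and at 5.98 and 2.81 for Pdgfrb, a growth factor receptor of pericytes. Other markers of the list moved less. Dcn was at 27.3 and 20.3 mean CPM (log2 -0.42), and Reln (9.15 and 8.17) and Des (2.02 and 1.39) did not pass.

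Col1a1 encodes the major chain of collagen I (ENSMUSG00000001506, chromosome 11 from 94827050 to 94843868, plus strand, GRCm39). It was at 20.1, 15.5, 17.2, 16.8 and 18.3 CPM in Mttp_flox_CM and at 6.44, 7.65, 6.92, 6.56 and 6.64 CPM in Mttp_KO_CM. Its log2 change was -1.36 (SE 0.0897, edgeR adjusted p = 7.2e-12), the steepest fall among the members tested. Col1a2, the partner chain, was at 10.7, 9.77, 9.67, 10.9 and 11.7 CPM against 3.22, 6.38, 4.14, 5.54 and 4.85 CPM (log2 -1.13, SE 0.133, edgeR adjusted p = 2.2e-07). The FPKM ratio of Col1a1 to Col1a2 was 3.16 ± 0.294 and 2.81 ± 0.661, and the difference did not pass (log2 -0.19, exact permutation adjusted p = 0.29). It was -0.309 without Mttp_KO_CM replicate 1, and -0.124 and -0.12 without Mttp_KO_CM replicate 2 or 4, and passed in none of these. Col3a1, which forms fibrils with collagen I, was at 15.14, 14.59, 15.63, 14.96 and 15.06 CPM against 6.83, 8.14, 6.86, 7.45 and 6.71 CPM. Its log2 change was -1.07 (SE 0.0841, edgeR adjusted p = 2.1e-10).

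The collagen V chains, which seat inside collagen I fibrils and limit their width, had smaller log2 changes, a difference that was not tested. Col5a1 was at 9.21, 8.57, 10.2, 8.50 and 11.4 CPM against 4.47, 6.17, 4.61, 6.56 and 5.49 CPM (log2 -0.81, SE 0.123). Col5a2 was at 11.2, 10.7, 9.74, 10.1 and 9.34 CPM against 5.91, 5.12, 5.92, 5.67 and 5.64 CPM (log2 -0.85, SE 0.099). The collagen I chain genes lie on different chromosomes, while Col3a1 and Col5a2 are neighbours on chromosome 1, from 45350698 to 45388866 (plus strand) and 45413481 to 45542442 (minus strand) in GRCm39. The summed FPKM of fibrillar collagens over that of collagen IV was 0.0748 ± 0.00515 in Mttp_flox_CM and 0.0482 ± 0.00282 in Mttp_KO_CM, with ranges of 0.0684 to 0.0801 and 0.0461 to 0.0525.

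The promoters of Col1a2, Col3a1 and Hspg2, whose log2 changes were larger than those of the collagen IV chains, differ in composition. Their windows are shown from the same RefSeq table, with matches to 5 motifs in capitals. These were the GC box and the CCAAT box as above, the TATA box (TATAAA or TTTATA), the AP-1 site (TGANTCA) and the direct repeat bound by PPAR and RXR (AGGTCA, any base N, then AGGTCA), each sought on both strands.
Col1a2, chr6:4505368-4505667, plus strand: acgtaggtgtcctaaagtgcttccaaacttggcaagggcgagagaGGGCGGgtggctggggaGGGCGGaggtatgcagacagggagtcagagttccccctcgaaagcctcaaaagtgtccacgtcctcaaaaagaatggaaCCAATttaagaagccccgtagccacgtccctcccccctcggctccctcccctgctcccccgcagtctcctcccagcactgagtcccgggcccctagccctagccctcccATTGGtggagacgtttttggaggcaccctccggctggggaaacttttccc
Col3a1, chr1:45311288-45311587, plus strand: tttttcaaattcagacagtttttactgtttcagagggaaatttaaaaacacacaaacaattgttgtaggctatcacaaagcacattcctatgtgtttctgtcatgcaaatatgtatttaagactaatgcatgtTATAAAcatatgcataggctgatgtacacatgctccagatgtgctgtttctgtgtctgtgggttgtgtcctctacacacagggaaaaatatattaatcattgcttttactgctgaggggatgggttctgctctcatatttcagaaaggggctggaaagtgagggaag
Hspg2, chr4:137468553-137468852, plus strand: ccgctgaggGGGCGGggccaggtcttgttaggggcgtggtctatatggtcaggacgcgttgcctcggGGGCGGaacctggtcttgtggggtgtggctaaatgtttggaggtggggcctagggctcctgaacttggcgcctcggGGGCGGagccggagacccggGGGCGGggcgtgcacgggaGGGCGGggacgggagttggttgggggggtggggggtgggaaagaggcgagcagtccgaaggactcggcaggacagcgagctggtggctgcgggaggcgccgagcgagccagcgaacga
Col1a2 holds 2 GC boxes and 2 CCAAT boxes, Col3a1 a TATA box only, and Hspg2 5 GC boxes. G and C make up 61.0%, 37.7% and 70.3% of these windows. None of the 3 holds the AP-1 site or the direct repeat, which 7.81% and 0.0396% of all windows hold, where a TATA box is in 13.6%. Of the 60 members 43 had a window in the table, in 48 windows, of which 30 hold a GC box, 15 a CCAAT box, 5 a TATA box, 1 an AP-1 site and 0 the direct repeat.

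Collagen VI, the beaded microfilament collagen around cells of the stroma, fell in each of its 3 chains tested. Col6a1 was at 4.72 ± 0.828 and 2.60 ± 0.337 CPM (SD, n = 5), Col6a2 at 3.06 ± 0.520 and 1.76 ± 0.554, and Col6a3 at 5.33 ± 0.544 and 3.07 ± 0.872. The log2 changes were -0.85 (SE 0.158), -0.80 (SE 0.206) and -0.80 (SE 0.162), with edgeR adjusted p = 1.3e-04, 0.0033 and 3.6e-04. Groups did not overlap for any of the 3. The FPKM ratio of Col6a1 to Col6a2 was 2.97 ± 0.600 and 3.07 ± 1.08 (exact permutation adjusted p = 0.98).

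Collagens of other classes were mixed. Col18a1, whose C-terminal fragment is endostatin and which sits in epithelial and vascular basement membranes, was at 108, 109.7, 107, 96.3 and 106 CPM in Mttp_flox_CM. In Mttp_KO_CM it was at 91.5, 91.2, 80.7, 86.1 and 85.9 CPM, and it fell by 0.28 (SE 0.0418, edgeR adjusted p = 9.5e-06). Col12a1, a fibril-associated collagen, was at 27.8, 29.5, 30.1, 33.5 and 30.5 CPM against 21.9, 22.4, 24.3, 22.7 and 20.7 CPM (log2 -0.43, SE 0.0582). The fibril-associated Col14a1 also fell, by 0.71 (SE 0.148), without overlap at 5.43 and 3.30 mean CPM. The transmembrane Col13a1 fell by 1.08 (SE 0.296), but it was near the floor at 1.50 and 0.706 mean CPM, and its groups overlapped. Col15a1, a relative of Col18a1, was at 11.8 ± 1.57 and 10.3 ± 0.756 CPM (log2 -0.18, edgeR adjusted p = 0.15). It passed without the unnumbered Mttp_flox_CM library (edgeR adjusted p = 0.048). Col20a1 passed as higher at 0.642 ± 0.269 and 1.19 ± 0.436 CPM (log2 0.89, SE 0.323, edgeR adjusted p = 0.032). Its groups overlapped, and it lost the call without Mttp_flox_CM replicate 1, 2 or 3 or without Mttp_KO_CM replicate 1, 3 or 4 (edgeR adjusted p from 0.059 to 0.11). It also lost it with limma on log2(FPKM + 1), with an adjusted p = 0.17. A gene on the same strand, 9230112E08Rik, overlaps Col20a1 in the files and had 2.58 times its counts.

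Class sums and marker sums are shown side by side. Laminin chains summed to 333.9 ± 12.2 and 322.3 ± 9.71 CPM, with ranges of 320 to 345 and 310 to 335, whereas every other class was separated between groups. The laminin sums overlap only with Lamb3 included, which rose from 3.29 to 19.1 mean CPM. Of the 8 laminin chains tested, 3 fell and 4 did not pass. Collagen IV went from 741 ± 28.7 to 584 ± 15.8 CPM, the linkers from 1334 ± 21.3 to 1114 ± 27.4 CPM, collagen VI from 13.4 ± 1.09 to 7.54 ± 1.18 CPM and the other collagens from 158 ± 4.41 to 128 ± 4.27 CPM.

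**Figure D5:**
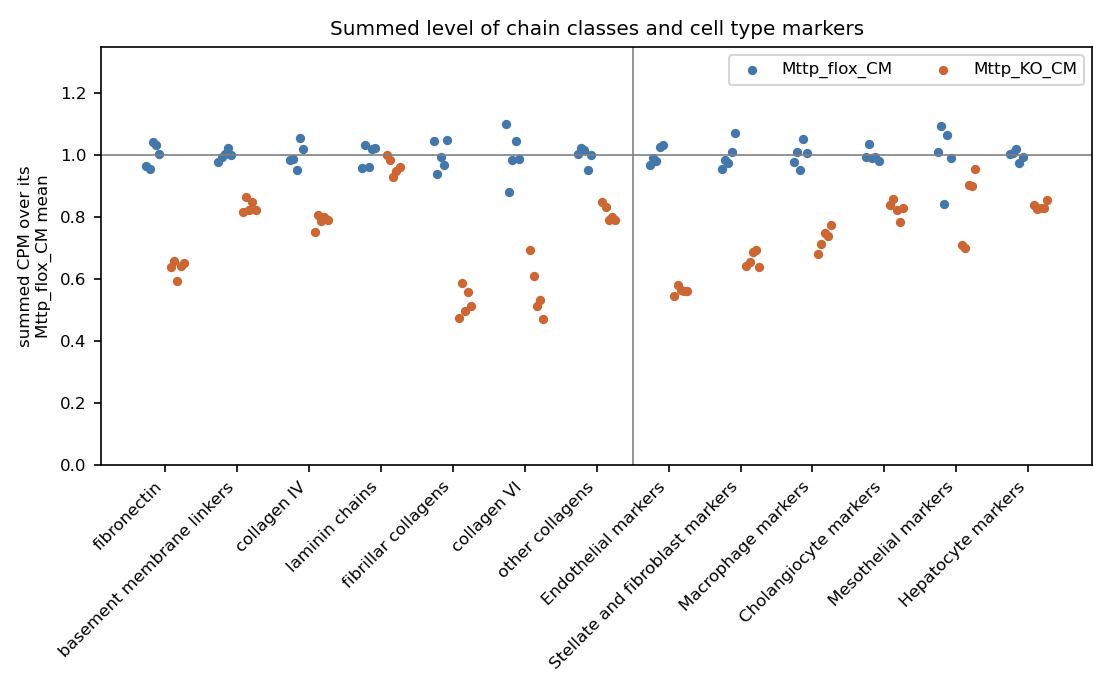
Summed CPM of each class of members and of 6 marker lists in every library, divided by the Mttp_flox_CM mean (y axis from 0), with 5 libraries per group. Fibrillar collagens and collagen VI sit lowest among the classes, and laminin chains, with Lamb3 in their sum, overlap. The endothelial, stellate, macrophage, cholangiocyte and hepatocyte sums are also lower in Mttp_KO_CM, while the mesothelial sums overlap. Of the 8 cholangiocyte markers 5 were tested, of which 2 were lower and 3 did not pass. The adipocyte list, whose sums were higher in Mttp_KO_CM, is not drawn.

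The wider matrix machinery is given by 4 lists of genes. Enzymes and chaperones of collagen processing had 10 of 26 tested genes lower and 3 higher (median log2 -0.14, beside 0.00 for all genes). The peroxidasin gene Pxdn, which cross-links collagen IV, fell by 0.65 (SE 0.0434). Loxl2, a lysyl oxidase, fell by 0.87 (SE 0.0654), Serpinh1, the collagen chaperone, by 0.45 (SE 0.0483), and Pcolce, which enhances procollagen cleavage, by 0.74 (SE 0.147). The 3 that were higher, P4ha2 (log2 0.20), P3h1 (0.17) and P4hb (0.07), were named after their values were seen. With library size alone, or without the unnumbered Mttp_flox_CM library or both unnumbered libraries, 1 was higher.

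Matrix receptors had 11 of 25 tested genes lower and 4 higher (median log2 -0.15). Itga1, a collagen-binding integrin subunit, fell by 0.83 (SE 0.0556) and Itga9 by 0.79 (SE 0.0549). The syndecan Sdc3 fell by 0.52 (SE 0.0435) and Itgb3 by 0.39 (SE 0.0395). The common subunit Itgb1 was at 680.2 and 701 mean CPM (log2 0.04, edgeR adjusted p = 0.18). The 4 that were higher were Itga7, Itgav, Itgb5 and Sdc1, by 0.30 or less, and 2 were higher with library size alone.

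Genes of matrix breakdown had 8 of 22 tested lower and 4 higher (median log2 -0.15). Plat, the tissue plasminogen activator, rose from 138 to 381 mean CPM (log2 1.46, SE 0.0469). Timp3, a matrix-bound metalloproteinase inhibitor, fell from 56.6 to 21.8 mean CPM (log2 -1.38, SE 0.0515), and the aggrecanase Adamts4 from 20.7 to 10.2 (log2 -1.02, SE 0.0814). Mmp15 (log2 0.72) and Plaur (log2 0.22) were also higher.

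Other matrix proteins had 28 of 37 tested genes lower and 0 higher by edgeR's test, with 1 higher at an unadjusted p under 0.05, 1 by DESeq2 and 1 by limma on log2 of FPKM plus 1 (median log2 -0.53). Without Mttp_KO_CM replicate 2, 1 was higher. Sparc, a collagen-binding glycoprotein, fell by 0.63 (SE 0.029) and osteopontin (Spp1) by 0.86 (SE 0.0433). The netrin Ntn4, which binds laminin gamma chains, fell by 0.96 (SE 0.0486) and the elastic fibre protein Emilin1 by 1.19 (SE 0.0649). Between 50% and 75.7% of the tested genes of these 4 lists were called in either direction, beside 36.4% of all genes tested.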

How the data were processed

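RNA of 10 libraries of mouse primary hepatocytes was measured by poly-A selected RNA sequencing, 5 per group. The authors deposited raw counts per gene, FPKM values (each count divided by gene length and by a constant of its library) and gene lengths. The submitters' processing notes name genome build GRCm39 and the tools HISAT2 2.0.5 and featureCounts 1.5.0-p3. Strand setting, annotation release and the handling of shared reads: not given in the sources used here. For 8 libraries a column name equals a label. In each group 1 more column carries a number that no label has, was placed by its letter and is called unnumbered. The labels give 3 fat donor mice, fewer than the 5 libraries of a group, so these libraries do not stand for 5 separate donors. Separate cultures or hepatocyte animals are not stated for the libraries of a group. SDs (n = 5) and p-values then cover the spread between libraries only, which may be technical, and not the spread between donors.

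Genes were kept by filterByExpr (minimum count 10, minimum total 15), leaving 14183 of 56748. Counts were scaled by TMM and tested in R 4.3.3 with edgeR 4.0.16 (glmQLFit, glmQLFTest, prior count 0.125) over all 10 libraries. An adjusted p under 0.05 is called a change. The code was tested on simulated data. Ratios between members were compared by exact two-sided permutation over libraries. All 7 pairs were chosen after the values were seen, so the p-values of the ratios are descriptive. Per-library values are given for called members with a mean of at least 5 CPM and for Lamb3, Col1a1, Col1a2, Col3a1 and Lamc1, the last added after its values were seen. Per-library counts of the untested Col4a3 are given outside this rule. The 4 matrix lists name up to 4 genes with the smallest p. Further genes of the collagen processing, receptor and breakdown lists were named outside that rule. Members and lists were chosen with earlier results of these data known. The 18 alternatives tried were DESeq2 1.42.0, its size factors, no TMM, 2 other filters, each library left out, both unnumbered libraries left out, a replicate block and limma 3.58.1 on log2(FPKM + 1). Values of some genes are not reported here, though they stay in the counts of genes and in class sums.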

Additional observations from a re-analysis of the deposited data

Results flagged for a closer look

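In 68 groups of 5 values (34 tested members in 2 groups), 4 had a library whose gap to its nearest neighbour exceeded 0.71 of the group's range, and chance flags about 1 in 20. Fn1 in Mttp_KO_CM replicate 3 was at 1369 CPM, with the other libraries of that group at 1473 to 1515 CPM. Lama5 in the same library was at 18.1 CPM, with the others at 23.0 to 25.0 CPM. Col4a1 in Mttp_KO_CM replicate 1 was at 332.7 CPM, with the others at 349.8 to 356.5 CPM. Col18a1 in Mttp_flox_CM replicate 4 was at 96.32 CPM, with the others at 106 to 109.7 CPM. In each case the outlying library was the lowest of its group. All 4 genes were also lower in Mttp_KO_CM without that library.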

How the results depend on the processing

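Across 18 alternatives, between 22 and 24 members were lower and between 1 and 3 higher, and the 22 lower members each remained called in every alternative run. Each of the 6 single libraries whose omission left 1 higher member took the call of Col20a1. With only genes that averaged 1 CPM or more, or limma on log2(FPKM + 1), 1 member was higher and 0 of the other collagens. Leaving out 1 library gave 1 to 3 higher members, 0 to 1 among other collagens, 0 to 1 among fibrillar collagens, 1 to 3 in collagen processing and 0 to 1 in other matrix proteins. In collagen processing 1 was higher with library size alone and 1 without both unnumbered libraries, in matrix receptors 2 with library size alone, and in other matrix proteins 1 with DESeq2 and 1 with limma. The members' median log2 change was -0.39 with library size alone, -0.46 with only genes that averaged 1 CPM or more, and -0.20 on log2(FPKM + 1), a scale that shrinks changes of low genes, and ran from -0.41 to -0.34 with 1 library left out. With 1 library left out Lama1 ran from -0.348 to 0.0422, positive without Mttp_flox_CM replicate 3, and Col5a3 from -0.319 to 0.0675, positive without the unnumbered Mttp_flox_CM library. Col5a3 was at 0.20 without both unnumbered libraries and 0.21 with the replicate block. None of these was called. The cause of these shifts was not tested.

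With 1 library left out, the log2 difference in the ratio of Col4a1 to Col4a2 was -0.0665 to -0.0426, of Col1a1 to Col1a2 -0.309 to -0.12, of Col6a1 to Col6a2 -0.159 to 0.203, of Lamc1 to Lamb1 0.176 to 0.422 and of Lamc1 to Lama4 0.137 to 0.22. Without both unnumbered libraries the log2 differences were -0.0552 for Col4a1 to Col4a2, 0.65 for Lamc1 to Lamb2 and -0.65 for Hspg2 to Nid1. None passed, but 4 against 4 allows no exact permutation p under 0.0286 before adjustment over 7 ratios, so this says nothing about their stability. Same-numbered libraries did not deviate together (correlations of -0.0089 to 0.075 over 4 pairs; for 2 of the 4 numbers the best match was the own number), so the numbers were not used as pairs. A replicate block over the 8 numbered libraries gave 22 members lower and 2 higher. Depth limits the 26 members that were not tested, none of which exceeded 17 counts in a library.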

Other observations

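Members below the filter were not tested in the main fit and are described by their counts. In the alternative with no filter, 3 collagen IV genes were lower, where 2 were in the main fit. Col4a3, a chain of kidney and lung basement membranes, had 11, 17, 10, 7 and 7 counts in Mttp_flox_CM and 6, 1, 7, 4 and 3 in Mttp_KO_CM, so the groups touched at 7 counts. In CPM they lay just apart, at 0.434 for the lowest Mttp_flox_CM library and 0.414 for the highest Mttp_KO_CM library. Col7a1, the anchoring fibril collagen, had 5 to 17 counts in Mttp_flox_CM and 0 to 14 in Mttp_KO_CM. The 7 members with no count in any library were Col2a1, Col6a4, Col9a1, Col11a1, Col19a1, Col26a1 and Col28a1, most of them chains known from cartilage or other specialised tissues.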
